A study of Mus musculus with 16 samples.

Results

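The genes described here are 4 ligands of the VEGF receptors (Vegfa, Vegfb, Vegfc and Vegfd), the 3 VEGF receptors (Kdr, Flt1 and Flt4), the angiopoietins Angpt1 and Angpt2, and the angiopoietin receptor Tek. They were taken by gene symbol from the deposited tables, 10 genes of 55487, and each symbol belonged to a single identifier. All 10 passed the filter on low counts in every comparison. RNA was sequenced from young male C57BL/6 mice (C57BL/6 J in the methods of the study) at 21 days after surgery on the sciatic nerve of 1 hind limb, with 4 libraries in each of 4 groups. In DEN a piece of the nerve was cut out, and in sham surgery the nerve was only located. DEN fibers and sham fibers are fibers of the extensor digitorum longus (EDL), freed by collagenase digestion and trituration, and DEN whole muscle and sham whole muscle are the intact tibialis anterior (TA). No group carried a transgene, and all were given the analgesic meloxicam at surgery. It was not stated whether EDL and TA came from the same animals, and muscle and preparation cannot be told apart in any comparison of fibers with whole muscle.

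VEGF ligands are secreted proteins that bind receptor tyrosine kinases on endothelial cells. VEGF-A is made by many cell types, muscle fibers among them, and acts through VEGFR2 (Kdr) to drive endothelial survival, permeability and sprouting, while VEGFR1 (Flt1) binds VEGF-A and VEGF-B and, in its soluble form, acts as a decoy. VEGF-C and VEGF-D act mainly through VEGFR3 (Flt4), the receptor of lymphatic endothelium that sprouting blood vessels also use. Angiopoietin 1 from perivascular and other cells keeps vessels quiet through Tie2 (Tek), and angiopoietin 2, which endothelial cells release, often opposes it.

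The 5 genes that were lower after DEN in both preparations, by a test relative to the bulk of genes, were Vegfa, Vegfb, Kdr, Flt1 and Flt4. The 250 bases before their RefSeq start (GRCm38.p6, written along the gene's strand) are shown because these genes were called lower in both DEN comparisons. The windows are chr17:46032378-46032627 (minus strand) for Vegfa, chr19:6987652-6987901 (minus strand) for Vegfb, chr5:75978456-75978705 (minus strand) for Kdr, chr5:147726012-147726261 (minus strand) for Flt1 and chr11:49609429-49609678 (plus strand) for Flt4. Capitals mark matches, on either strand, to ACGTG (the core of the hypoxia response element), CCGGAA (an ETS core) or TATAAA.
Vegfa: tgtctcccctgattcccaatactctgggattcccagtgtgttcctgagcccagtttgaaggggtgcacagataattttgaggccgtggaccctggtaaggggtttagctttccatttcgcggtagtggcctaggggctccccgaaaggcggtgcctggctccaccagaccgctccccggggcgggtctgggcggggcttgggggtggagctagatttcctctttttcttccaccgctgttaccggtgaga
Vegfb: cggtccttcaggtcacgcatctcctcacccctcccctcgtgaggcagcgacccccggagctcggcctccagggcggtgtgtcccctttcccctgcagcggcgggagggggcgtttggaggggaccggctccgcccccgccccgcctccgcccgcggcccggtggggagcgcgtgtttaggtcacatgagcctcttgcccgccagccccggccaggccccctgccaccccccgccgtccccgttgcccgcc
Kdr: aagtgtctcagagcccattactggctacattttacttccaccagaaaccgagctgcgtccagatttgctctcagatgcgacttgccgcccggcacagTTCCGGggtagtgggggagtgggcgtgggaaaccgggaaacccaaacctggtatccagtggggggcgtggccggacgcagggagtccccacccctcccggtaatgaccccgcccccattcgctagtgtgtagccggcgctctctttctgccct
Flt1: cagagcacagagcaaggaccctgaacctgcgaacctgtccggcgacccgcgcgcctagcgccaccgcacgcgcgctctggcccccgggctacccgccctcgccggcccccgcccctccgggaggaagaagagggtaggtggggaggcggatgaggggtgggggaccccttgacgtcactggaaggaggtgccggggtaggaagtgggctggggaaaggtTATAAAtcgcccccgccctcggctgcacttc
Flt4: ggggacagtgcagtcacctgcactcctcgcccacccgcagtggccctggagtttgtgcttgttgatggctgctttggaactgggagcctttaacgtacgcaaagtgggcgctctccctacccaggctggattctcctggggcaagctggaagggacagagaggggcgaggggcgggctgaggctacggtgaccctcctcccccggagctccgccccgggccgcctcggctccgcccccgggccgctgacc

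CCGGAA was found in the Kdr window, at 153 bases before the start, on the opposite strand. TATAAA was found in the Flt1 window, at 31 bases before the start. The Vegfa, Vegfb and Flt4 windows held none of the 3 motifs, nor did those of Vegfc and Tek, and the Vegfd window held TATAAA. The window of a second Vegfa start in the RefSeq table, chr17:46025164-46025413, held ACGTG. That window lies inside the Vegfa gene, downstream of the start that GENCODE gives. The Flt4 window lies downstream of the gene start that GENCODE gives. Of 32851 promoter windows of this length, 16.6% held ACGTG, 12.03% held CCGGAA and 12.4% held TATAAA. No match overlapped another.

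The libraries held 47570214 to 62297405 gene counts. No pair of replicates was alike within sampling noise: a chi-square comparison of their counts averaged at least 13.2 per gene. All groups held skeletal muscle RNA, with 10 muscle fiber markers that summed to 95115 to 110692 RPM in DEN fibers (counts scaled to the library's total) against 161412 to 195063 RPM in sham fibers, and to 126449 to 134022 RPM in DEN whole muscle against 184772 to 205866 RPM in sham whole muscle. The fiber libraries were not free of vessel RNA. The summed level of 15 endothelial markers, led by Cdh5, was 508 to 802 RPM in DEN fibers and 474 to 622 RPM in sham fibers, beside 393 to 450 RPM in DEN whole muscle and 506 to 551 RPM in sham whole muscle. In such bulk samples, fewer cells of a type and less RNA per cell cannot be told apart.

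Fold changes depended on how libraries were scaled. Under TMM, which takes the bulk of genes as level between libraries, the log2 change with DEN had a median over all tested genes of 0.0076 (fibers) and 0.024 (whole muscle). With libraries scaled to their total counts only, as in RPM, that median was 0.49 (fibers) and 0.45 (whole muscle). A gene with equal RPM in DEN and sham was therefore below most other genes after DEN. The split of all calls moved with it, to 9950 genes higher and 1494 lower in DEN fibers under total counts only, beside 4532 higher and 4515 lower under TMM. In whole muscle the split was 9983 higher and 2273 lower under total counts only, beside 5572 higher and 5273 lower under TMM. Changes below are from edgeR under TMM unless stated, called at an adjusted p under 0.05.

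In whole muscle, 9 of the 10 genes fell after DEN and none rose, where 32.2% of all tested genes fell and 34% rose. The median log2 change of the 10 genes was −0.83. In fibers, 5 fell (Vegfa, Vegfb, Kdr, Flt1 and Flt4) and 1 rose (Vegfd), where 27% of all tested genes fell and 27.1% rose, and the median of the 10 genes was −0.44. Under total counts only, the median was −0.40 in whole muscle, with 9 genes still called lower and Vegfd called higher. In fibers it was 0.058 under total counts only, and Vegfd alone was called. The whole-muscle fall was therefore seen under both scalings, and the fiber fall only relative to the bulk of genes.

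**Figure D1:**
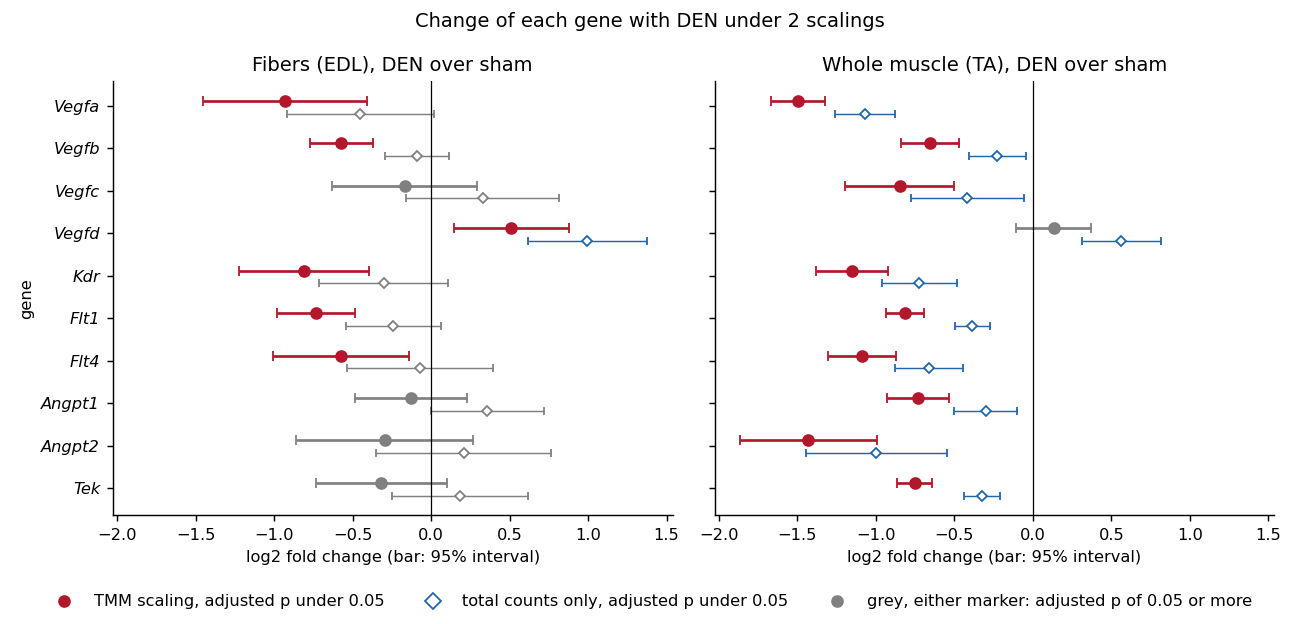
Log2 fold change with DEN of each of the 10 genes (down the page) in fibers, left, and whole muscle, right, with 95% intervals. Filled circles are from TMM scaling and open diamonds from total counts only, and grey marks an adjusted p of 0.05 or more. In whole muscle 9 genes lie below 0 under both scalings, and in fibers only Vegfd is called under both.

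Taken per length of gene (RPKM), the ligands Vegfa and Vegfb stood far above the other 8 genes in all 4 groups. Vegfa averaged 108 ± 27.1 RPKM in DEN fibers and 147 ± 39.7 RPKM in sham fibers (SD, n = 4 each). Vegfb had means of 51.7 ± 3.68 RPKM (DEN fibers) and 55.0 ± 6.11 RPKM (sham fibers), below Vegfa without overlap in either group. In whole muscle the order turned. Vegfb averaged 63.7 ± 1.49 RPKM and Vegfa 34.0 ± 1.86 RPKM in DEN whole muscle, without overlap, whereas in sham whole muscle they overlapped at 74.6 ± 10.001 RPKM for Vegfb and 71.3 ± 9.36 RPKM for Vegfa. The receptors Kdr, Flt1 and Tek came next, with group means of 4.25 to 9.13 RPKM, and overlapped with their neighbours in the order in every group, except that Kdr stood clear of Tek in sham whole muscle. Angpt1 followed at 1.71 to 3.02 RPKM, level with Vegfd in DEN whole muscle. Flt4, Vegfc, Vegfd and Angpt2 had group means of 0.488 to 1.80 RPKM, and most neighbours among them overlapped.

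**Figure D2:**
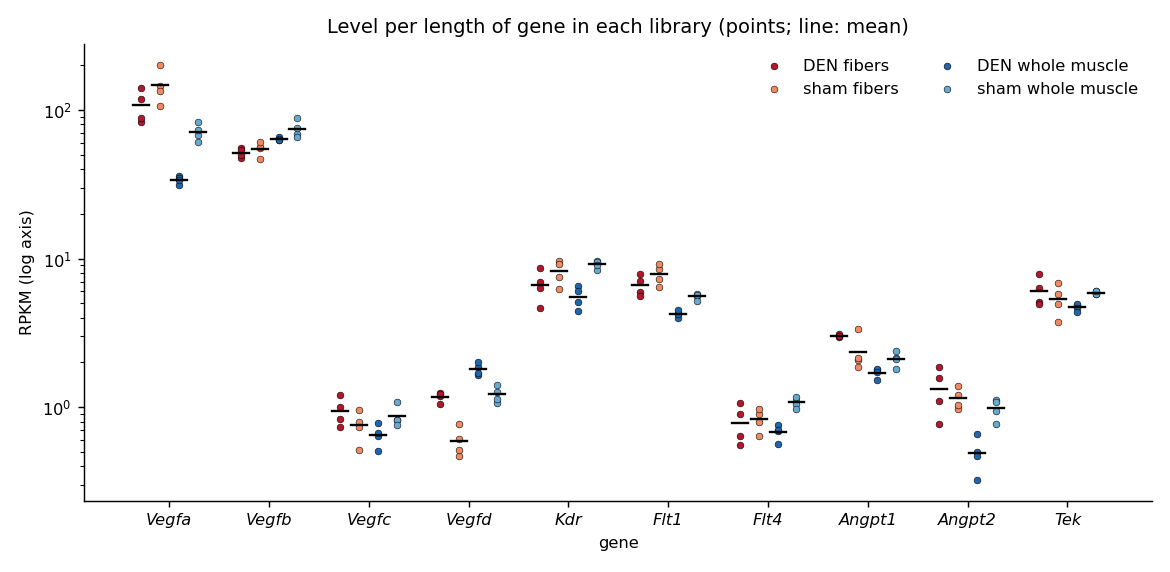
Level of each gene in each library in RPKM (log axis), with points for the 4 libraries of each of the 4 groups and a line at the mean. Vegfa and Vegfb lie above 30 RPKM in every library, Kdr, Flt1 and Tek between 3 and 10, and the remaining genes at or below 3.35.

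Vegfa (ENSMUSG00000023951, chr17:46016993-46032369, minus strand) had the largest fall of the 10 in both preparations. In whole muscle it was at 154, 149, 135 and 146 RPM after DEN, against 357, 291, 262 and 313 RPM after sham. Every DEN library lay below every sham library, and the log2 change was −1.497 (SE 0.078, 95% interval −1.67 to −1.32, adjusted p = 5.14e-08). Fiber libraries had Vegfa at 357, 603, 376 and 508 RPM after DEN, against 623, 863, 458 and 576 RPM after sham. These groups overlapped, with DEN replicates 2 and 4 above sham replicate 3. The log2 change in fibers was −0.93 (SE 0.23, interval −1.46 to −0.41, adjusted p = 0.00739), and −0.45 under total counts only (adjusted p = 0.0791, in a range of 0.000134 to 0.0791 over 14 alternatives). Vegfa has 13 annotated transcripts, 8 of them coding, and gene counts do not separate its isoforms.

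Vegfb (ENSMUSG00000024962, chr19:6982473-6987651, minus strand) encodes a ligand of Flt1 that is linked to fatty acid uptake in muscle and heart. It was at 105, 100.4, 103 and 100.4 RPM in DEN whole muscle, against 109.8, 122, 106 and 142 RPM in sham whole muscle. The DEN libraries were tightly grouped just below the sham ones, and the log2 change was −0.66 (SE 0.084, adjusted p = 4.49e-05). In the fiber libraries Vegfb was at 75.9, 89.0, 80.4 and 86.4 RPM after DEN, against 74.7, 89.4, 90.7 and 98.1 RPM after sham. The fiber groups overlapped over most of their range in RPM, and the log2 change of −0.57 (SE 0.089, adjusted p = 0.000455) was −0.09 under total counts only (adjusted p = 0.404, range 1.72e-07 to 0.404).

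Vegfa fell further than Vegfb in whole muscle. Their ratio within a library does not depend on scaling, and its log2 was 0.54, 0.57, 0.39 and 0.54 in DEN whole muscle, against 1.70, 1.26, 1.31 and 1.14 in sham whole muscle. The groups did not overlap, and the difference of means was −0.84. Of all tested genes, 5.45% were lower relative to Vegfb without overlap in this comparison. In fibers the log2 ratio averaged 2.44 ± 0.26 after DEN and 2.80 ± 0.43 after sham (SD, n = 4 each), and the groups overlapped.

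Vegfd (ENSMUSG00000031380, chrX:164373378-164402650, plus strand), a lymphangiogenic ligand, was the exception to the fall. It was at 2.51, 3.02, 2.87 and 2.94 RPM in DEN fibers, against 1.13, 1.47, 1.23 and 1.85 RPM in sham fibers. All DEN fiber libraries were above all sham ones, with a log2 change of 0.51 (SE 0.16, adjusted p = 0.0243) and of 0.99 under total counts only (adjusted p = 0.000481). Under TMM that call ended when DEN fibers replicate 2 or 4, or sham fibers replicate 1, 2 or 3, was left out, with adjusted p of 0.0509 to 0.0673. In whole muscle it was at 4.45, 4.86, 3.93 and 4.06 RPM after DEN, against 3.05, 3.41, 2.58 and 2.72 RPM after sham. These groups did not overlap either, but the log2 change of 0.13 (interval −0.11 to 0.37, adjusted p = 0.300) was called only under total counts only, at 0.56 (adjusted p = 0.00103, range over the alternatives 0.00103 to 0.674). Its counts were low, from 55 to 302 a library.

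Vegfc (ENSMUSG00000031520, chr8:54077606-54187096, plus strand), the main lymphangiogenic ligand, was at 1.57, 1.93, 1.25 and 1.64 RPM in DEN whole muscle, against 2.00, 2.02, 1.86 and 2.67 RPM in sham whole muscle. The groups overlapped by 1 DEN library, and the log2 change was −0.85 (SE 0.16, adjusted p = 0.00069). In fibers it was at 2.47, 1.79, 2.97 and 2.05 RPM after DEN, against 1.96, 1.27, 2.36 and 1.79 RPM after sham. The fiber change of −0.17 (interval −0.63 to 0.29, adjusted p = 0.513) did not pass the test and was 0.33 under total counts only. Vegfc was counted by 63 to 165 reads a library.

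**Figure D3:**
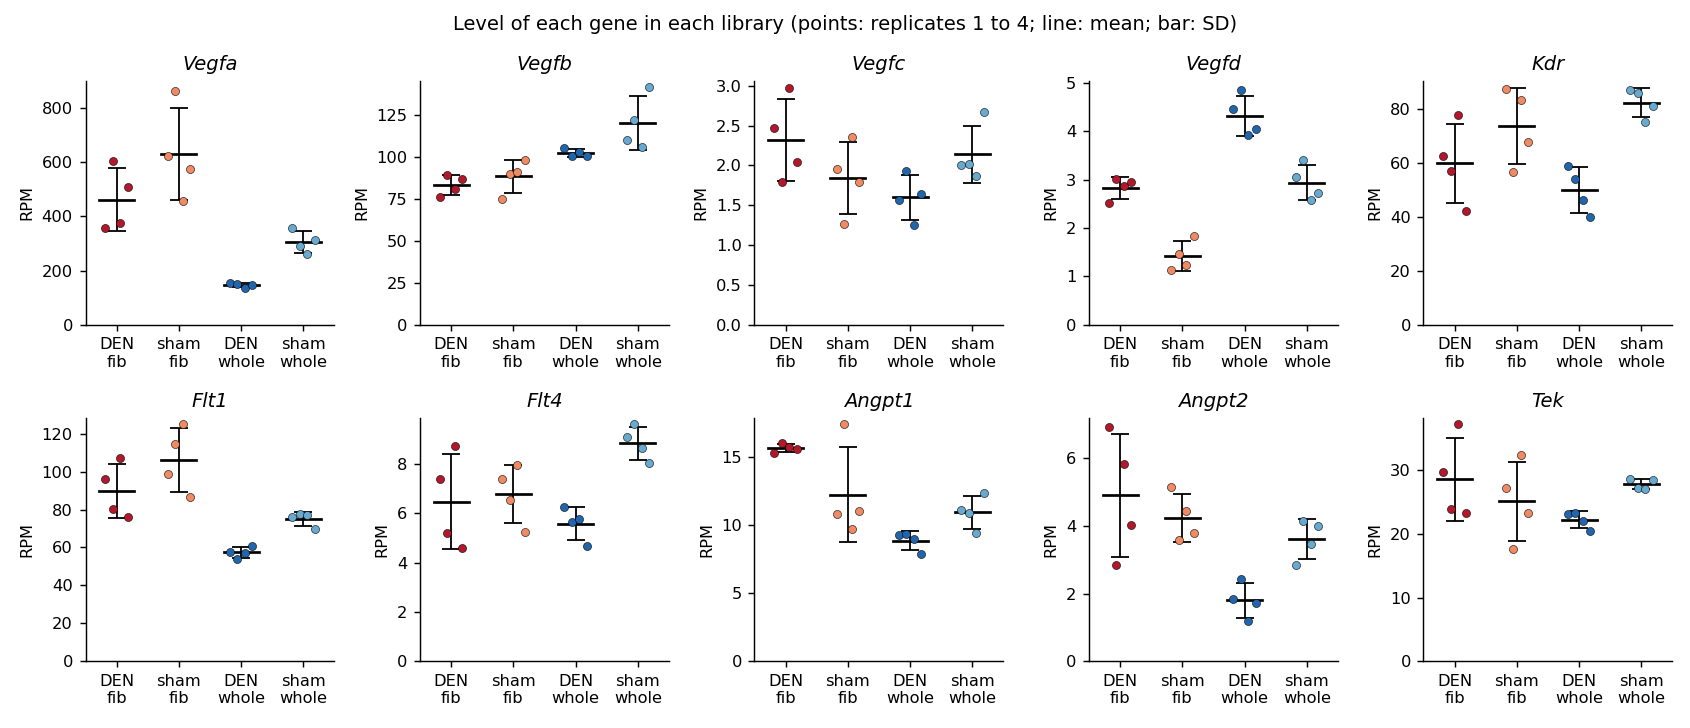
Level of each gene in each library in RPM (axes from 0), with points for replicates 1 to 4 and the mean ± SD of each of the 4 groups. In fibers only Vegfd separates DEN from sham, and in whole muscle every gene but Vegfc does.

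Without overlap in RPM, 8 genes were lower and Vegfd was higher in DEN whole muscle, where 69.2% of all tested genes did not overlap. In fibers Vegfd alone did not overlap, where 62.2% of all tested genes did not. Both shares join genes that were higher and genes that were lower, which were not counted apart. The 2 directions were not even in RPM, since total counts only gave 9983 genes called higher and 2273 lower in DEN whole muscle.

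Kdr (ENSMUSG00000062960, chr5:75932827-75978458, minus strand), the main signalling receptor for VEGF-A, was at 59.1, 54.3, 46.3 and 39.9 RPM in DEN whole muscle, against 87.2, 86.0, 75.3 and 81.2 RPM in sham whole muscle. The DEN libraries were all lower, with a log2 change of −1.15 (SE 0.10, adjusted p = 2.93e-06). Fiber libraries had Kdr at 62.5, 57.1, 77.9 and 42.1 RPM after DEN, against 87.5, 56.7, 83.3 and 68.0 RPM after sham. The fiber groups overlapped, and the log2 change of −0.81 (SE 0.18, adjusted p = 0.00435) was −0.30 under total counts only (adjusted p = 0.167, range 4.1e-05 to 0.167).

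Flt1 (ENSMUSG00000029648, chr5:147561604-147726011, minus strand), the decoy and VEGF-B receptor, was at 57.7, 54.0, 57.2 and 60.9 RPM in DEN whole muscle, against 75.9, 77.5, 76.9 and 69.6 RPM in sham whole muscle. The groups stood apart, with a log2 change of −0.81 (SE 0.054, adjusted p = 2.93e-07). In the fiber libraries Flt1 was at 95.9, 80.3, 107 and 75.9 RPM after DEN, against 98.5, 114, 125 and 86.6 RPM after sham. Each group's highest libraries passed the other's lowest, and the log2 change of −0.73 (SE 0.11, adjusted p = 0.000402) was −0.24 under total counts only (adjusted p = 0.139, range 2.05e-09 to 0.139). Soluble and membrane forms of Flt1 share this gene count.

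Flt4 (ENSMUSG00000020357, chr11:49609263-49652739, plus strand) was at 6.27, 5.64, 5.79 and 4.66 RPM in DEN whole muscle, against 9.09, 9.63, 8.64 and 8.05 RPM in sham whole muscle. No DEN library reached a sham one, and the log2 change was −1.09 (SE 0.097, adjusted p = 2.81e-06). Fiber libraries had Flt4 at 7.40, 5.23, 8.72 and 4.58 RPM after DEN, against 7.41, 6.56, 7.98 and 5.27 RPM after sham. DEN replicate 3 was the highest fiber library and DEN replicate 4 the lowest. The fiber change of −0.57 (SE 0.19, adjusted p = 0.0302) lost its call without DEN fibers replicate 2 or 4 or sham fibers replicate 1 or 3 (adjusted p 0.0642 to 0.0852), and was −0.07 under total counts only (adjusted p = 0.780).

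Markers of lymphatic endothelium varied beside Flt4 among the DEN fiber libraries. Ccl21a, a lymphatic chemokine whose symbol is shared by a second identifier so that its count is uncertain, was at 4.92, 0.491, 4.397 and 0.429 RPM. Mmrn1, another lymphatic marker, was at 2.67, 0.175, 2.83 and 0.351 RPM. Both were thus high in replicates 1 and 3, the libraries in which Flt4 was highest. This order was not particular to lymphatic markers. Kdr, Tek and the endothelial sum (802, 508, 783 and 535 RPM in DEN fibers) were also highest in replicates 1 and 3. The 7 lymphatic markers summed to 64.9 to 83.7 RPM in DEN fibers against 19.04 to 40.0 RPM in sham fibers, and to 32.0 to 33.4 RPM in DEN whole muscle against 10.7 to 15.001 RPM in sham whole muscle. Of these 7, 5 rose and none fell in fibers (6 and none under total counts only). In whole muscle 3 rose (Prox1, Itga9 and Pdpn) and 3 fell (3 and 2 under total counts only). The 2 that fell under total counts only were Lyve1 (log2 change −0.79) and Mmrn1 (−1.18). The whole-muscle sum was led by Itga9, with a mean of 14.3 RPM after DEN and 3.70 RPM after sham, so its rise is not that of every marker. None of the 7 was at 0 in a whole group, and their part in the Flt4 values was not tested.

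Tek (ENSMUSG00000006386, chr4:94739289-94874976, plus strand), the angiopoietin receptor, was at 23.1, 23.4, 22.0 and 20.4 RPM in DEN whole muscle, against 28.6, 27.2, 27.02 and 28.5 RPM in sham whole muscle. Both groups were narrow and apart, with a log2 change of −0.75 (SE 0.050, adjusted p = 2.72e-07). In the fiber libraries Tek was at 29.8, 23.9, 37.2 and 23.3 RPM after DEN, against 27.2, 17.6, 32.3 and 23.2 RPM after sham. The fiber change of −0.32 (interval −0.73 to 0.10, adjusted p = 0.177) was 0.19 under total counts only, and was called without sham fibers replicate 2, at −0.46 (adjusted p = 0.0286, range over the alternatives 0.0275 to 0.414).

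Tek relative to Kdr was higher after DEN in both preparations. The log2 ratio of Tek to Kdr was −1.07, −1.25, −1.06 and −0.86 in DEN fibers, against −1.68, −1.68, −1.36 and −1.55 in sham fibers. It was −1.36, −1.22, −1.07 and −0.96 in DEN whole muscle, against −1.61, −1.66, −1.48 and −1.51 in sham whole muscle. DEN and sham did not overlap in either preparation, with differences of means of 0.51 in fibers and 0.41 in whole muscle. Kdr was itself among the genes that fell, and 50.2% of all tested genes in fibers and 81.7% in whole muscle were likewise higher relative to Kdr without overlap. The log2 ratio of Flt1 to Kdr overlapped in both preparations, at 0.60 ± 0.18 after DEN and 0.53 ± 0.37 after sham in fibers, and at 0.22 ± 0.30 after DEN and −0.14 ± 0.11 after sham in whole muscle.

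**Figure D4:**
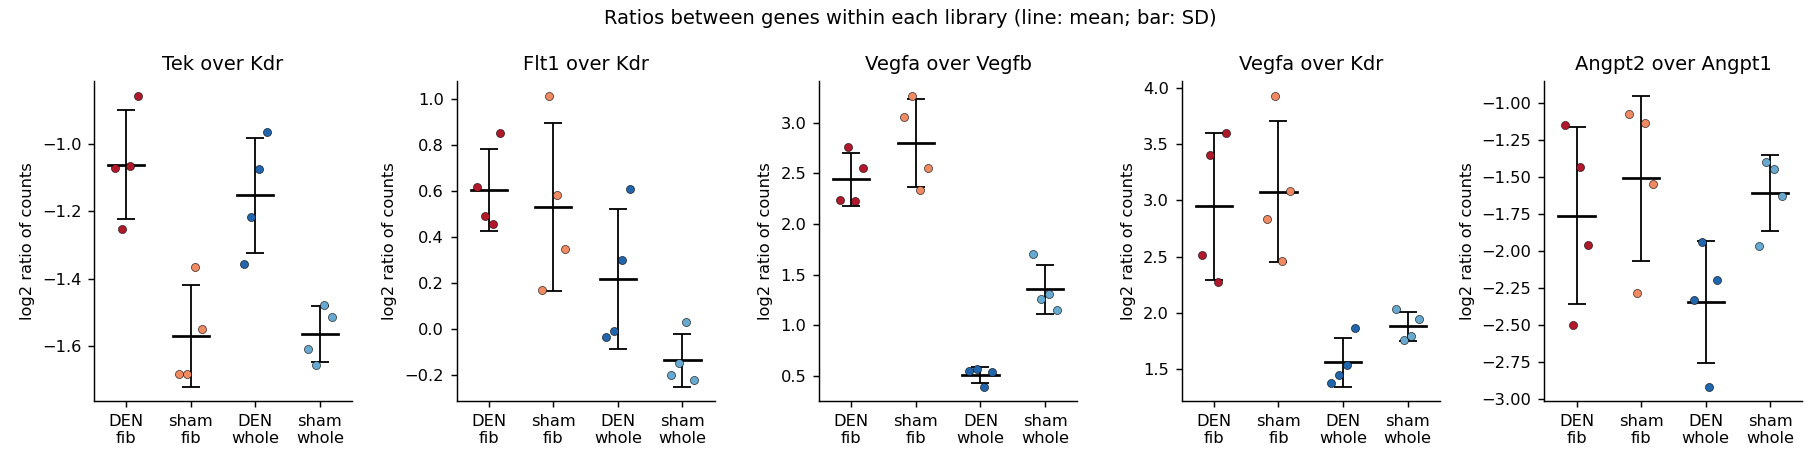
Log2 ratio of the counts of 2 genes within each library, which does not depend on scaling between libraries, for 5 pairs. Points are replicates, with the mean ± SD of each of the 4 groups. Tek over Kdr is higher in every DEN library than in any sham library of the same preparation, and Vegfa over Vegfb is lower in DEN whole muscle than in sham whole muscle.

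Angpt1 (ENSMUSG00000022309, chr15:42424723-42676977, minus strand), the Tie2 agonist, was at 9.27, 9.37, 8.998 and 7.89 RPM in DEN whole muscle, against 11.1, 10.9, 9.42 and 12.4 RPM in sham whole muscle. All DEN libraries were lower, with a log2 change of −0.73 (SE 0.089, adjusted p = 3.09e-05). In fibers it was at 15.3, 16.1, 15.7 and 15.6 RPM after DEN, against 10.8, 17.4, 9.72 and 11.1 RPM after sham. Sham fibers replicate 2 alone lay above the DEN fibers, and the other 3 sham libraries lay below all of them. The fiber change of −0.13 (interval −0.48 to 0.23, adjusted p = 0.523) was 0.07 without that library and 0.36 under total counts only, and none of these passed the test.

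Angpt2 (ENSMUSG00000031465, chr8:18690263-18741562, minus strand), the Tie2 ligand of activated endothelium, was at 1.85, 2.44, 1.19 and 1.72 RPM in DEN whole muscle, against 2.85, 4.14, 3.47 and 4.01 RPM in sham whole muscle. The DEN libraries were all lower, with a log2 change of −1.43 (SE 0.20, adjusted p = 7.67e-05), close in size to that of Vegfa. In fibers it was at 6.91, 2.84, 5.84 and 4.03 RPM after DEN, against 5.16, 3.58, 4.44 and 3.80 RPM after sham. DEN replicates 1 and 3 were above all sham fibers and DEN replicate 2 below all, and the change of −0.30 (interval −0.86 to 0.27, adjusted p = 0.347) was 0.21 under total counts only. Angpt2 lies inside Mcph1 and Angpt1 overlaps Gm17473, each on the opposite strand, and reads were counted by strand.

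Other vessel genes also varied among the DEN fiber libraries. Vwf, an endothelial marker of larger vessels, was at 184, 45.7, 139 and 71.1 RPM in DEN fibers, and the endothelial sum at 802, 508, 783 and 535 RPM. Both were thus high in replicates 1 and 3, where Angpt2 was high. The smooth muscle gene Myh11 was at 250, 35.2, 157 and 503 RPM in DEN fibers, beside 47.0 to 66.5 RPM in sham fibers, so that it was highest in replicate 4, where Angpt2 was not high, and lowest in replicate 2. The 11 pericyte and smooth muscle markers other than Des (a muscle fiber gene as well) summed to 1421, 744, 1234.2 and 1834 RPM in DEN fibers against 658 to 863 RPM in sham fibers, and to 547 to 627 RPM in DEN whole muscle against 676 to 702 RPM in sham whole muscle. The part of these cells in the Angpt2 values was not tested. The log2 ratio of Angpt2 to Angpt1 overlapped in both preparations, at −1.76 ± 0.60 after DEN and −1.51 ± 0.56 after sham in fibers, and at −2.34 ± 0.41 after DEN and −1.61 ± 0.26 after sham in whole muscle.

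The question of whether the receptors fell with endothelial RNA as a whole was addressed by ratios to the endothelial sum. Of the 15 endothelial markers, 14 fell and none rose in whole muscle (8 and none under total counts only), and 7 fell and none rose in fibers, where under total counts only 4 rose and none fell. In whole muscle, the ratio of Kdr, of Flt4 and of Vegfa to that sum was lower after DEN than after sham without overlap, as was the case for 5.5% of all tested genes. The log2 ratio of Kdr averaged −3.12 ± 0.17 in DEN whole muscle and −2.68 ± 0.09 in sham whole muscle (SD, n = 4 each). That of Flt4 averaged −6.27 ± 0.10 in DEN whole muscle and −5.90 ± 0.14 in sham whole muscle. That of Angpt2 averaged −7.94 ± 0.41 in DEN whole muscle and −7.20 ± 0.24 in sham whole muscle. The groups overlapped for Angpt2 only through DEN replicate 2 and sham replicate 1. By contrast, Tek was nearly level, at −4.27 ± 0.02 in DEN whole muscle and −4.24 ± 0.03 in sham whole muscle, with overlap, and the ratio of Flt1 overlapped too. Vegfd was higher relative to the sum without overlap, as were 69.7% of all tested genes.

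In fibers, Flt1 was the single gene of the 10 whose ratio to the endothelial sum did not overlap. Its log2 ratio was −3.06, −2.66, −2.87 and −2.82 in DEN fibers, against −2.46, −2.20, −2.32 and −2.45 in sham fibers. All DEN fiber libraries were lower, as was the case for 7.23% of all tested genes (23.9% were higher without overlap). The ratio of Kdr was −3.46 ± 0.26 over DEN fibers and −2.89 ± 0.24 over sham fibers, and the groups overlapped through DEN replicate 2 and sham replicate 2.

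**Figure D5:**
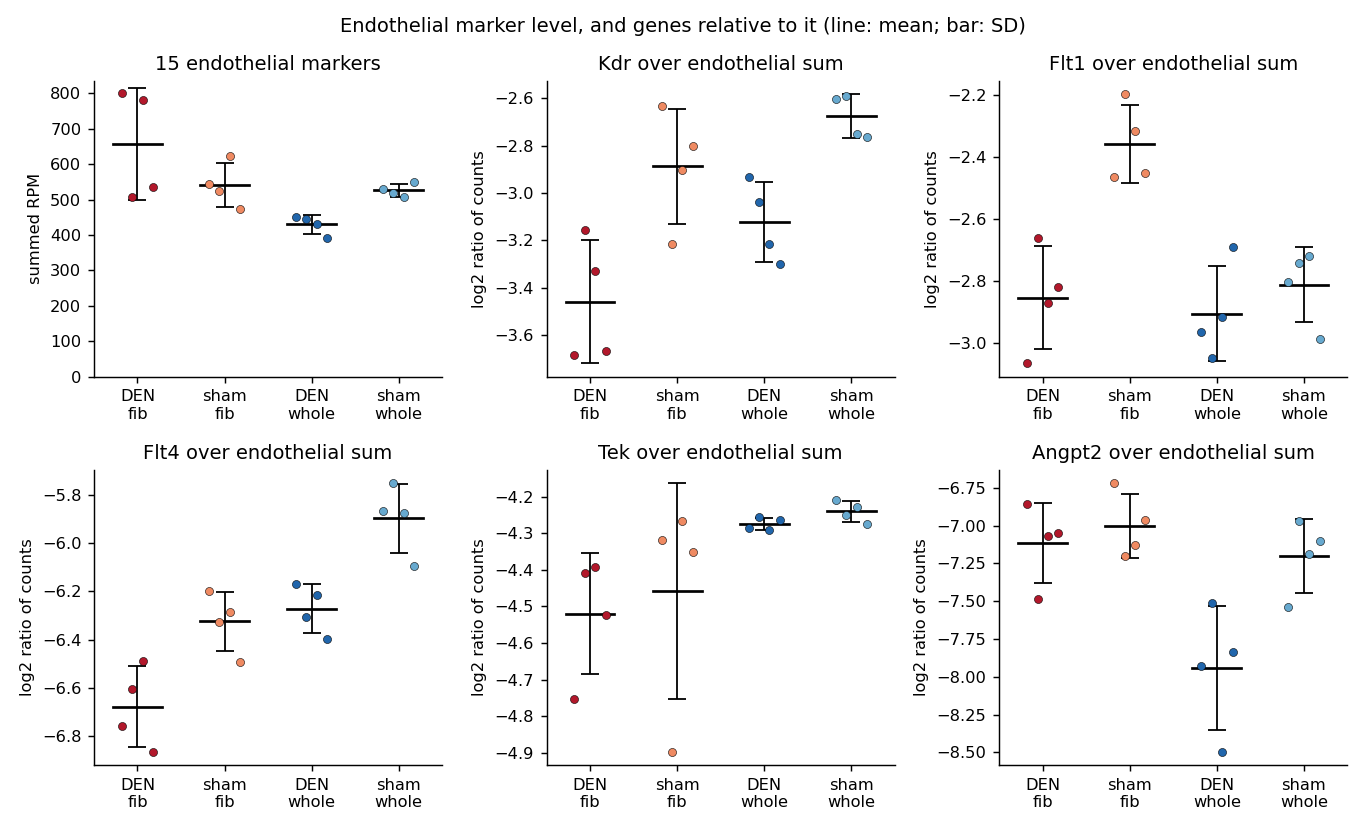
Summed RPM of 15 endothelial markers (first panel, axis from 0) and the log2 ratio of Kdr, Flt1, Flt4, Tek and Angpt2 counts to the summed marker counts, for each library with the mean ± SD of each of the 4 groups. Kdr and Flt4 are lower relative to the sum in DEN whole muscle, Flt1 is lower in DEN fibers, and Tek lies level in whole muscle.

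Whether the response to DEN differed between fibers and whole muscle was tested with an interaction term over all 16 libraries. It was called for 2 of the 10 genes, both angiopoietins, where 18.9% of all tested genes were called (1241 with a higher and 2066 with a lower response in fibers, or 1488 and 1173 under total counts only). Vessel markers shared this direction. The term was called higher for 5 of the 15 endothelial markers (median 0.37) and for 8 of the 12 pericyte and smooth muscle markers (median 0.99). It was called lower for none of either. Their part in the calls of the 10 genes was not tested. The DEN effect of Angpt2 was higher in fibers than in whole muscle by 1.12 (log2, interval 0.39 to 1.85, adjusted p = 0.0335), and that of Angpt1 by 0.59 (interval 0.18 to 1.00, adjusted p = 0.0424). Neither call was firm. That of Angpt2 ended without DEN fibers replicate 1 or 3, sham fibers replicate 2 or 4, DEN whole muscle replicate 1, 3 or 4, or sham whole muscle replicate 2, and its adjusted p ranged from 0.00855 to 0.0610 over 21 alternatives. That of Angpt1 ended without DEN fibers replicate 2 or 4, sham fibers replicate 1, 3 or 4, DEN whole muscle replicate 1, 3 or 4, or sham whole muscle replicate 1, 2 or 4, with a range of 0.000538 to 0.0667. None of the other 8 genes was called. All 8 had a positive difference, from 0.07 (Flt1 and Vegfb) to 0.66 (Vegfc), and the 95% intervals excluded 0 for Vegfc (0.10 to 1.23, adjusted p = 0.0924) and Flt4 (0.02 to 0.99, adjusted p = 0.134). The term was called for Vegfa without sham fibers replicate 2 (adjusted p = 0.0464, range 0.0464 to 0.264), for Vegfd without sham fibers replicate 4 (adjusted p = 0.0337, range 0.0337 to 0.325), and for Flt4 without DEN fibers replicate 4 (adjusted p = 0.0474) or with a replicate block (adjusted p = 0.0339, range 0.0339 to 0.266).

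Fibers and whole muscle also differed within each surgery, in comparisons that share their libraries with those above. After DEN, 6 of the 10 genes were higher in fibers than in whole muscle and 2 were lower, where 30.2% of all tested genes were higher and 26.4% lower. Of the 15 endothelial markers, 10 were likewise higher and 1 was lower in DEN fibers than in DEN whole muscle (median log2 difference 0.46), and of the 12 pericyte and smooth muscle markers 7 were higher and 2 lower. Their part in the calls of the 10 genes was not tested. After sham, 2 were higher (Vegfa and Flt1) and 3 were lower (Vegfb, Vegfd and Flt4), where 25.5% of all tested genes were higher and 23.2% lower. Vegfa was higher in fibers than in whole muscle by 1.62 after DEN (log2, SE 0.17, adjusted p = 2.24e-05) and by 1.03 after sham (SE 0.18, adjusted p = 0.00109). Flt1 was higher by 0.59 after DEN (adjusted p = 0.000186) and by 0.47 after sham (adjusted p = 0.00256). Vegfb and Vegfd went the other way. Vegfb was lower in fibers by −0.35 after DEN (adjusted p = 0.00114) and by −0.47 after sham (adjusted p = 0.00332), and Vegfd by −0.65 after DEN (adjusted p = 0.000363) and by −1.07 after sham (adjusted p = 0.000462).

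The remaining calls between preparations were of Angpt1 at 0.78 (adjusted p = 6.31e-06) and Angpt2 at 1.39 (adjusted p = 0.00186), both higher in DEN fibers than in DEN whole muscle, and of 3 less firm ones. Vegfc was higher by 0.48 (adjusted p = 0.0326) and Tek by 0.31 (adjusted p = 0.0403) in DEN fibers than in DEN whole muscle. The Vegfc call ended without DEN fibers replicate 1 or 3 or DEN whole muscle replicate 1, 3 or 4, and with a replicate block. The Tek call ended without DEN fibers replicate 1 or 3 or any 1 of the 4 DEN whole muscle libraries. Each of these calls held in 7 of 14 alternatives. Of the 8 alternatives that left out 1 library, the Vegfc call held in 3 and the Tek call in 2. The Tek call therefore also ended under a change of method, and the Vegfc call under more changes of method than the replicate block. Relative to the endothelial sum, Tek was lower in DEN fibers than in DEN whole muscle without overlap (log2 ratio −4.52 ± 0.17 in DEN fibers and −4.27 ± 0.02 in DEN whole muscle). Vegfb, Vegfd and Flt4 were likewise lower without overlap. Vegfa and Angpt2 were higher relative to the sum without overlap, with differences of mean log2 ratio of 1.05 and 0.83. Kdr, Vegfc, Flt1 and Angpt1 overlapped. The share of all tested genes without overlap was not counted for this comparison. The adjusted p reached 0.0926 for Vegfc and 0.129 for Tek. Flt4 was lower in sham fibers than in sham whole muscle by −0.40 (adjusted p = 0.0291), a call that ended without sham fibers replicate 2 or sham whole muscle replicate 1, 2 or 3 (adjusted p up to 0.0746). The Flt4 call held in 9 of 14 alternatives, among them 4 of the 8 that left out 1 library, and so also ended under a change of method. The immediate-early gene Egr3 was at 8.03 to 12.8 RPM in DEN fibers and 4.44 to 6.98 RPM in DEN whole muscle, and at 10.9 to 23.6 RPM in sham fibers and 0.449 to 0.775 RPM in sham whole muscle. It was thus higher in every fiber library than in the whole muscle of the same surgery, as Vegfa was, and its part in the level of Vegfa was not tested.

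Genes that act with these ligands and receptors, or in related responses, were taken as lists. These lists were chosen with earlier results of these data known, so their counts are given as a description. The lists overlap, with Lyve1 also among the lymphatic markers and Nos3 in both the VEGF and the Tie2 response list. Among 12 co-receptors and partners, 3 rose and 6 fell in whole muscle (5 and 6 under total counts only), and 3 rose and 2 fell in fibers (5 and none under total counts only). Nrp1, a VEGF co-receptor, averaged 24.7 RPM in DEN whole muscle and 39.2 RPM in sham whole muscle (log2 change −1.10). Ptprb, the phosphatase that restrains Tie2, averaged 41.4 RPM in DEN whole muscle and 65.4 RPM in sham whole muscle (log2 change −1.09). The interaction was called for both, with DEN effects that were higher in fibers by 0.60 for Nrp1 (adjusted p = 0.00206) and by 0.76 for Ptprb (adjusted p = 0.0115). In fibers the semaphorins Sema3f and Sema3e rose, by 1.08 and 1.18 on the log2 scale. The rise was not particular to fibers. Under total counts only, Sema3f was called higher by 1.57 in fibers and 1.29 in whole muscle, and Sema3e by 1.69 and 1.84. Angpt4, a further angiopoietin, was at 1.32, 0.491, 0.901 and 3.63 RPM in DEN fibers and 0.0825, 0.121, 0.434 and 0.0362 RPM in sham fibers (log2 change 2.72, adjusted p = 0.0139). The sham values were very low, so the size of this change is uncertain. Angpt4 was also called higher in whole muscle under total counts only, at 0.93 (adjusted p = 0.0271). Among DEN fibers it was highest in replicate 4 and lowest in replicate 2, in the order of Myh11.

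Of 16 VEGF response and tip cell genes, 13 fell and 2 rose in whole muscle (9 and 4 under total counts only), with a median log2 change of −0.88. In fibers 8 fell and none rose, but 2 fell and 3 rose under total counts only. Dll4, the Notch ligand of tip cells, averaged 15.5 RPM in DEN fibers, against 20.8 RPM in sham fibers (log2 change −0.90, adjusted p = 0.00041). Nrarp, a Notch target, fell by 0.80 in fibers (though not called under total counts only, at −0.30) and by 1.33 in whole muscle. The 2 that rose in whole muscle were Egr3 at 2.75 and Dusp5, a MAP kinase phosphatase, at 2.43, both of which muscle cells and other cell types also induce. Egr3 fell in fibers, by 1.14.

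Of 20 regulators of VEGF genes and hypoxia response genes, 13 fell and 6 rose in whole muscle (5 and 9 under total counts only), and 6 fell and 3 rose in fibers (1 and 12 under total counts only), so that the direction of this list depended on scaling. Egln1, the prolyl hydroxylase that marks HIF for degradation, fell under both scalings. It averaged 190 RPM in DEN whole muscle and 320 RPM in sham whole muscle (log2 change −1.18), and 104 RPM in DEN fibers and 142 RPM in sham fibers (log2 change −0.94). Epas1, which encodes HIF-2α, fell in whole muscle by 0.90. Of HIF targets, Kdm3a and Egln3 rose in both preparations under both scalings, by 0.60 each in fibers and by 0.48 (Kdm3a) and 0.75 (Egln3) in whole muscle. Ankrd37, also a HIF target, fell in whole muscle by 1.03, and in fibers its change of 0.26 was called only under total counts only, at 0.73.

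Of 10 genes of the FoxO1 and Tie2 response, Tek itself among them, 6 fell and 3 rose in whole muscle (4 and 3 under total counts only), and 5 fell and 1 rose in fibers (1 and 4 under total counts only). Klf4 fell by 1.14 and Klf2 by 0.78 in fibers, of which the call of Klf2 ended under total counts only. Both encode flow-responsive transcription factors. Nos3, the endothelial nitric oxide synthase, fell by 0.87 in whole muscle and by 0.61 in fibers, the second not called under total counts only. Of 14 anti-angiogenic factors, 3 rose and 4 fell in whole muscle (7 and 4 under total counts only), and 3 rose and 3 fell in fibers (4 and 1 under total counts only). The thrombospondins Thbs1 and Thbs2 rose in whole muscle, by 1.02 and 1.14, and Vash2, which despite its place in this family is described as promoting angiogenesis, rose in fibers by 2.51. Col4a3, the source of the fragment tumstatin, fell in both, by 1.44 in fibers and by 1.74 in whole muscle.

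Across the 16 libraries, the genes most like each member in level were found by Pearson's r of log2(RPM + 0.5). The points share 4 groups and the scaling of RPM, so r is given as a description. Tek was most like Cdh5 (r = 0.934), the cadherin of endothelial junctions, followed by Gask1b and Cavin2. Angpt2 was most like Mmrn2 (r = 0.908), Ptprb and Adgrf5, all of endothelium, and Flt4 like Gdpd5 (r = 0.895), Eng and Kdr. The nearest to Kdr were Gdpd5 (r = 0.948), Rassf9 and Prag1, and to Flt1 Shank3 (r = 0.962), Arhgap31 and Ptprz1. Vegfa was most like Dennd1b (r = 0.978), Ptpn4 and Slc4a4, Vegfb like Mdh2 (r = 0.956), Gtf3a and Btbd6, and Vegfd like Gnpat (r = 0.976), Wdr11 and Ppp6r2. Vegfc was nearest to Eif5a2 (r = 0.894), Gask1b and Pxdn, and Angpt1 to P2ry2 (r = 0.912), Rai1 and Frzb.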

How the data were processed

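RNA from 16 samples was sequenced from polyA-selected, strand-specific libraries (single-end, 101 bp). Per the submitters' processing notes, the authors used bcl2fastq 2.20.0.422, cutadapt 2.1 and TopHat2 2.1.0 on GRCm38, and the deposited counts are whole reads per gene from featureCounts 1.6.5, counted by strand. The deposited RPM values were made by the authors from those counts and the total of each library. RPKM values, also deposited, entered no test, and the gene length in them equalled the GENCODE M21 exon union for the 10 genes.

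Counts were tested with edgeR 4.0.16 (R 4.3.3) by the quasi-likelihood test after filterByExpr with a minimum count of 10 and TMM scaling, with Benjamini-Hochberg adjustment over all tested genes. Each comparison of 2 groups used its own 8 libraries, and the interaction all 16. The procedure was tested on simulated data. Alternatives were RLE factors, total counts only, no filter, DESeq2 1.42.0, a replicate block, all 16 libraries in 1 fit and leaving out each library, and, for endothelial ratios, Pecam1 and Cdh5 only. The study states that its replicates are different mice. The genes and lists were chosen with earlier results of these data known. Named list genes were up to 3 per list and DEN comparison with the largest absolute change among those called with a mean of at least 1 RPM, and the 3 genes most like each member. Promoters are from the RefSeq table, which matched 8 of the 10 genes (not Angpt1 and Angpt2). Coordinates of genes are from GENCODE M21 (GRCm38).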

Additional observations from a re-analysis of the deposited data

Results flagged for a closer look

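Among 192 groups of 4 libraries tested, 8 had a library apart from the other 3, and none of these was among the 40 groups of the 10 genes described. Chance flags about 1 in 20 groups. In DEN whole muscle, Dll4 stood at 10.9 RPM in replicate 2 (others 8.12 to 8.51), Egln3 at 65.7 RPM in replicate 1 (others 54.7 to 55.1) and Klf4 at 15.02 RPM in replicate 1 (others 16.5 to 16.6). In sham fibers, Kdm3a stood at 22.4 RPM (others 17.1 to 17.95) and Cldn5 at 69.8 RPM (others 29.3 to 32.9) in replicate 2. In replicate 3 of sham fibers, Ephb4 stood at 22.0 RPM (others 14.9 to 15.3), Vash2 at 0.625 RPM (others 0.221 to 0.268) and Thbs2 at 73.8 RPM (others 10.6 to 20.9).

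The DEN effect differed between fibers and whole muscle, by the interaction term in edgeR, for 18 of 48 named genes tested, beside 18.9% of all tested genes. The list genes among them were named for a large DEN change in 1 of the preparations, so the count is not that of an unselected list. Both angiopoietins were among them, Angpt1 at 0.59 and Angpt2 at 1.12 (log2, fibers minus whole muscle). Of the co-receptor and partner list, the term was 0.60 for Nrp1, 0.76 for Ptprb and 1.69 for Lyve1, which is also a lymphatic marker. Of the regulator and hypoxia list it was 0.42 for Epas1 and 1.27 for Ankrd37, and of the anti-angiogenic list 2.00 for Vash2. It was −3.91 for Egr3 and −2.45 for Dusp5. Among markers of other cells it was 1.596 for Vwf, 4.09 for Ccl21a, 4.63 for Mmrn1 and −0.90 for Pdpn, and, of smooth muscle and pericytes, 4.57 for Cnn1, 2.55 for Tagln, 2.51 for Myh11 and 1.32 for Notch3. Adjusted p ran from 1.34e-06 (Egr3) to 0.0424 (Angpt1).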

How the results depend on the processing

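Of the fold changes of the 10 genes recomputed under the alternatives, 705 kept direction and side of the threshold, 52 lost a call, 7 gained one and 6 turned in sign. Under total counts only, 1 of the 10 genes was called between DEN fibers and sham fibers, where 6 were under TMM, and the changes of Vegfc (0.33), Angpt1 (0.36), Angpt2 (0.21) and Tek (0.19) turned positive without a call. Leaving out 1 library at a time, the count of the 10 genes called for interaction ran from 0 to 2, the Angpt1 change from −0.25 to 0.069 between DEN fibers and sham fibers, and from −0.062 to 0.25 between sham fibers and sham whole muscle. Of the counts of called genes, 141 stayed within 1.5 times and 13 moved further. All 180 recomputed ratios moved by less than 1 SD. Leaving out 1 of 4 libraries cannot move a group mean that far, so only the ratios to Pecam1 and Cdh5 could have moved further.

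The replicate numbers were not used as pairs in the main fits, and the values do not settle whether they pair the samples. The correlation of same-numbered deviations was 0.054, 0.184, 0.240 and 0.050 between DEN fibers and sham fibers, and was under 0.1 for at least 1 number in every comparison. The same number gave the highest correlation for DEN fibers replicates 1, 2 and 3 against sham fibers. It also did for sham fibers replicates 1, 2 and 4 against sham whole muscle, and DEN fibers replicates 1 and 4 against DEN whole muscle. Between DEN and sham whole muscle it did so for replicate 3 alone. With a replicate block, 9347 genes were called in fibers (9047 without) and 10478 in whole muscle (10845 without), and Tek was called in fibers (adjusted p = 0.0275). Vegfc, Vegfd and Angpt2 had the lowest counts, 55 to 355 a library.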
